A study of Homo sapiens with 15 samples.

Results

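The collagen genes described here are the protein-coding genes of GENCODE release 29 whose symbol is COL, a number, A and a number. They were matched by Ensembl identifier and number 44 of the 58735 genes in the tables, spread over 28 collagen types. Collagens are the secreted triple-helical proteins of the extracellular matrix, and each molecule winds together chains from the same gene or from several genes. Fibrillar types form ropes that bear load, type IV forms the sheet of basement membranes, type VI forms beaded filaments, and other types sit on fibrils or span the cell membrane. The chains are hydroxylated, folded and trimerized in the endoplasmic reticulum, trimmed and cross-linked outside the cell, bound by integrins and discoidin domain receptors, and broken down by metalloproteinases. A kidney epithelium normally rests on type IV collagen, whereas fibrillar collagens come mostly from stromal cells.

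RNA was sequenced from HEK293T, a human embryonic kidney cell line that served as the supporting cell in a co-culture model of drug resistance. There were 5 groups of 3 wells and 15 libraries in all. Every group carried a lentiviral CRISPR vector and was selected with puromycin. The control group, Non-target, carried the Non-target vector, and its genotype is labelled WT. The other groups were the CRISPR knockout clones (CKO) of C9orf89, MAGI2, MLPH and RHBDD2. Each group was a clone from limiting dilution, and no more than 1 clone per genotype is named. The wells are labelled as biological replicates, but the spread given below is that between wells and not that between independent clones, and a difference between genotypes cannot be told apart from a difference between clones. No drug or partner cell is named for these libraries. They held between 15517856 and 19489918 fragments on genes.

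Transcripts of the genes aimed at by the guides were checked before the collagens. RHBDD2 was 33.5 ± 5.50 FPKM (SD, n = 3) in Non-target, 12.4 ± 1.18 in RHBDD2-CKO and also low in MAGI2-CKO, at 13.8 ± 2.15. CARD19, the present symbol of C9orf89, was 6.56 ± 1.04 FPKM in Non-target, 4.32 ± 0.0421 in C9orf89-CKO and also low in RHBDD2-CKO, at 4.79 ± 0.339. It was 5.82 ± 0.419 FPKM in MAGI2-CKO and 6.68 ± 0.423 in MLPH-CKO. MAGI2 was 0.115 ± 0.0108 FPKM in Non-target and 0.0680 ± 0.0195 in its own clone. Its mean was also below Non-target where other genes were aimed at, with 0.0718 ± 0.00455 FPKM for C9orf89-CKO. RHBDD2-CKO stood at 0.0829 ± 0.0219 FPKM and MLPH-CKO at 0.0838 ± 0.0227. The libraries of MAGI2-CKO overlapped with those of each other clone, so the fall of MAGI2 was not specific to its own clone. MLPH had no fragment in any of the 15 libraries, so its RNA could not check the label. A knockout by small deletions need not lower the RNA, and none of these values shows whether the protein was lost.

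HEK293T is labelled as embryonic kidney, and the 9 kidney and neural genes used to mark this line, among them PAX2, VIM and LIN28B, all passed the filter on low values. Their summed level was 153 FPKM in Non-target, 169 in C9orf89-CKO and 148 in MAGI2-CKO. MLPH-CKO had 209 FPKM and RHBDD2-CKO had 105, with VIM the most abundant. The replicate 1 libraries stood apart within every group. Between replicates 2 and 3 the chi-square per gene was 2.40 to 6.54, and it was 14.6 to 24.8 wherever replicate 1 was in the pair. Counts are therefore also given without the replicate 1 libraries.

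Of the 44 collagen genes, 22 had at least 0.5 FPKM (fragments per kilobase of exon, scaled to library depth, a level per length) in at least 3 libraries and were tested. The other 22 did not reach this level, and the highest value among them in any library was 0.541 FPKM, from 94 fragments of COL24A1. Of these, 14 stayed below 0.1 FPKM in every library, and 4 never had more than 3 fragments. COL1A2, the partner chain of COL1A1 in ordinary type I collagen, had at most 1 fragment in a library. COL6A3, the largest of the classical type VI chains, had at most 10. The network-forming types VIII and X were all under the filter. By kind, 6 of 11 fibrillar genes, 5 of 6 type IV genes, 2 of 5 type VI genes, 3 of 10 fibril-associated genes and 3 of 4 transmembrane genes were tested. The remaining tested genes were COL18A1, COL7A1 and COL26A1. COL3A1 passed the filter only through the 3 Non-target libraries, COL4A4 through the 3 of RHBDD2-CKO and 1 of MLPH-CKO, and COL23A1 through the 3 of C9orf89-CKO and 1 of Non-target. High values of these genes in those groups are partly fixed by the filter, and counts over the 22 genes are a description.

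**Figure D1:**
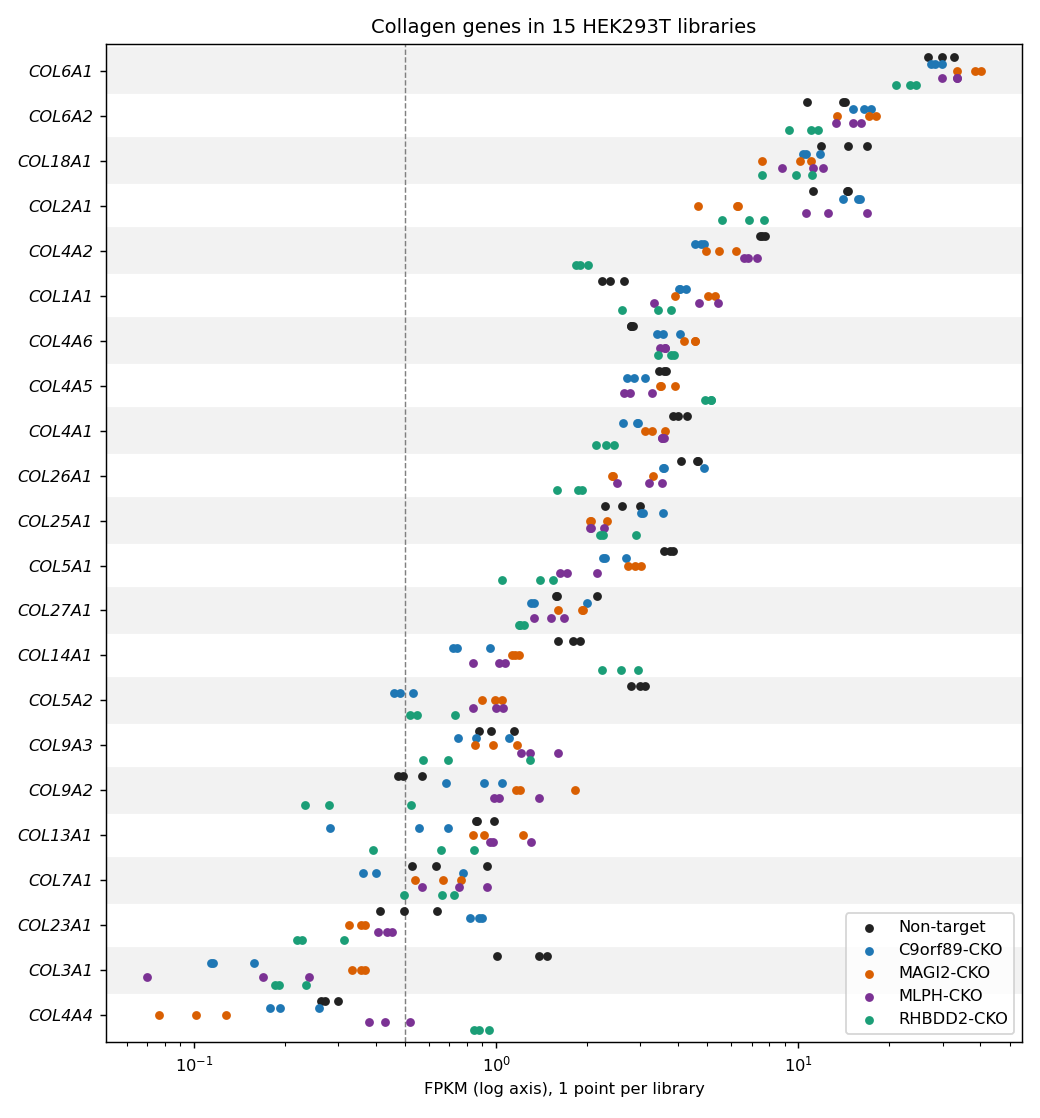
FPKM of the 22 tested collagen genes on a log axis, with 1 point for each of the 15 libraries, coloured by group, and genes ordered by their mean. The dashed line marks 0.5 FPKM. COL6A1 is the most abundant in every group, COL3A1 and COL5A2 have their Non-target points to the right of all clones, and COL4A2 has its RHBDD2-CKO points to the left of all others.

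Type VI, type XVIII and type II genes made up most of the summed collagen FPKM. By fragments, type IV was the largest kind in Non-target, at 0.0275% of the fragments, beside 0.0228% for type VI. The 44 genes summed to 115 ± 9.56 FPKM in Non-target, 107 ± 1.21 in C9orf89-CKO and 108 ± 10.2 in MAGI2-CKO. In RHBDD2-CKO the sum was 81.5 ± 5.94 FPKM, and in MLPH-CKO 109 ± 10.7 (SD, n = 3). The highest RHBDD2-CKO library, at 87.0 FPKM, was below the lowest library of any other group, at 97.1. COL6A1 alone held 25.8% of the summed collagen FPKM in Non-target and 34.4% in MAGI2-CKO. COL6A1, COL6A2, COL18A1 and COL2A1 together held between 61.0% and 66.3% in the 5 groups. Collagen genes took 0.0919% of the fragments in Non-target and 0.0653% in RHBDD2-CKO. In bulk RNA, fewer cells with a transcript and less of it per cell cannot be told apart.

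Against Non-target, lower collagen genes outnumbered higher ones in each clone. In C9orf89-CKO, 3 of the 22 tested genes were higher (13.6%) and 7 were lower (31.8%), while 12.9% of all 16175 genes tested were higher and 13.1% lower. In MAGI2-CKO, 4 were higher (18.2%) and 9 lower (40.9%), against 17% and 19.1% of all genes. In MLPH-CKO, 3 were higher (13.6%) and 6 lower (27.3%), against 14.5% and 15.5% of all genes. In RHBDD2-CKO, 4 were higher (18.2%) and 11 lower (50%), against 17.4% and 16.7% of all genes. The shares of higher genes were near those of all genes, and the shares of lower genes were above them. These shares are partly fixed by the filter. COL3A1, which passed it through Non-target alone, is counted as lower in all 4 clones. COL4A4 is counted as higher in RHBDD2-CKO and COL23A1 in C9orf89-CKO, the clones whose libraries mostly took them past it. The median log2 fold change of the tested collagen genes was -0.25, -0.28, -0.15 and -0.51 in the order above, and that of all genes tested lay between -0.01 and 0.00. In either direction the numbers of collagen genes were 10, 13, 9 and 15 in this order, beside 26%, 36.1%, 30.1% and 34.1% of all genes. Without the replicate 1 libraries they were 11, 14, 9 and 19, and the shares of all genes were also larger, at 32.4%, 40.4%, 36.9% and 42%. All 4 comparisons use the same Non-target wells, so they are not independent of each other.

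Between the clones, 11 collagen genes differed between MAGI2-CKO and C9orf89-CKO (22.5% of all genes did), 7 between MLPH-CKO and C9orf89-CKO (14.2%), and 7 between MLPH-CKO and MAGI2-CKO (21.2%). With 1 library left out at a time, the first of these numbers was 6 to 11, with 6 without the second library of either clone and 7 without the third of MAGI2-CKO. The number between MLPH-CKO and C9orf89-CKO was 4 to 8, with 4 without the second C9orf89-CKO library. RHBDD2-CKO differed from C9orf89-CKO in 13 (29.3% of all genes), from MAGI2-CKO in 14 (41.6%) and from MLPH-CKO in 14 (37%). COL3A1 and COL5A2 were higher in Non-target than in each of the other 4 groups and COL4A6 was lower, so 3 collagen genes set Non-target apart, where 6.65% of all genes did. RHBDD2-CKO was set apart in this way by 8 collagen genes, where 11.5% of all genes did so. COL14A1, COL4A4 and COL4A5 were higher there than in every other group, and COL26A1, COL4A1, COL4A2, COL5A1 and COL6A1 were lower. COL3A1 in Non-target and COL4A4 in RHBDD2-CKO are high in the group that took them past the filter. COL4A6 was higher in MAGI2-CKO than in every other group, where 1.92% of all genes were. COL23A1 was so in C9orf89-CKO, the clone that took it past the filter, where 0.649% of all genes were. Of the 22 genes, 17 changed in at least 1 clone against Non-target, where 61.5% of all genes did, and 5 changed in both directions depending on the clone, where 7.28% of all genes did. These were COL14A1, COL4A4, COL4A5, COL6A1 and COL23A1. The number fell from 5 to 2, COL14A1 and COL4A4, without the first Non-target library or with only the 6 libraries of a contrast. COL4A4 and COL23A1 owe 1 of their directions in part to the filter.

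**Figure D2:**
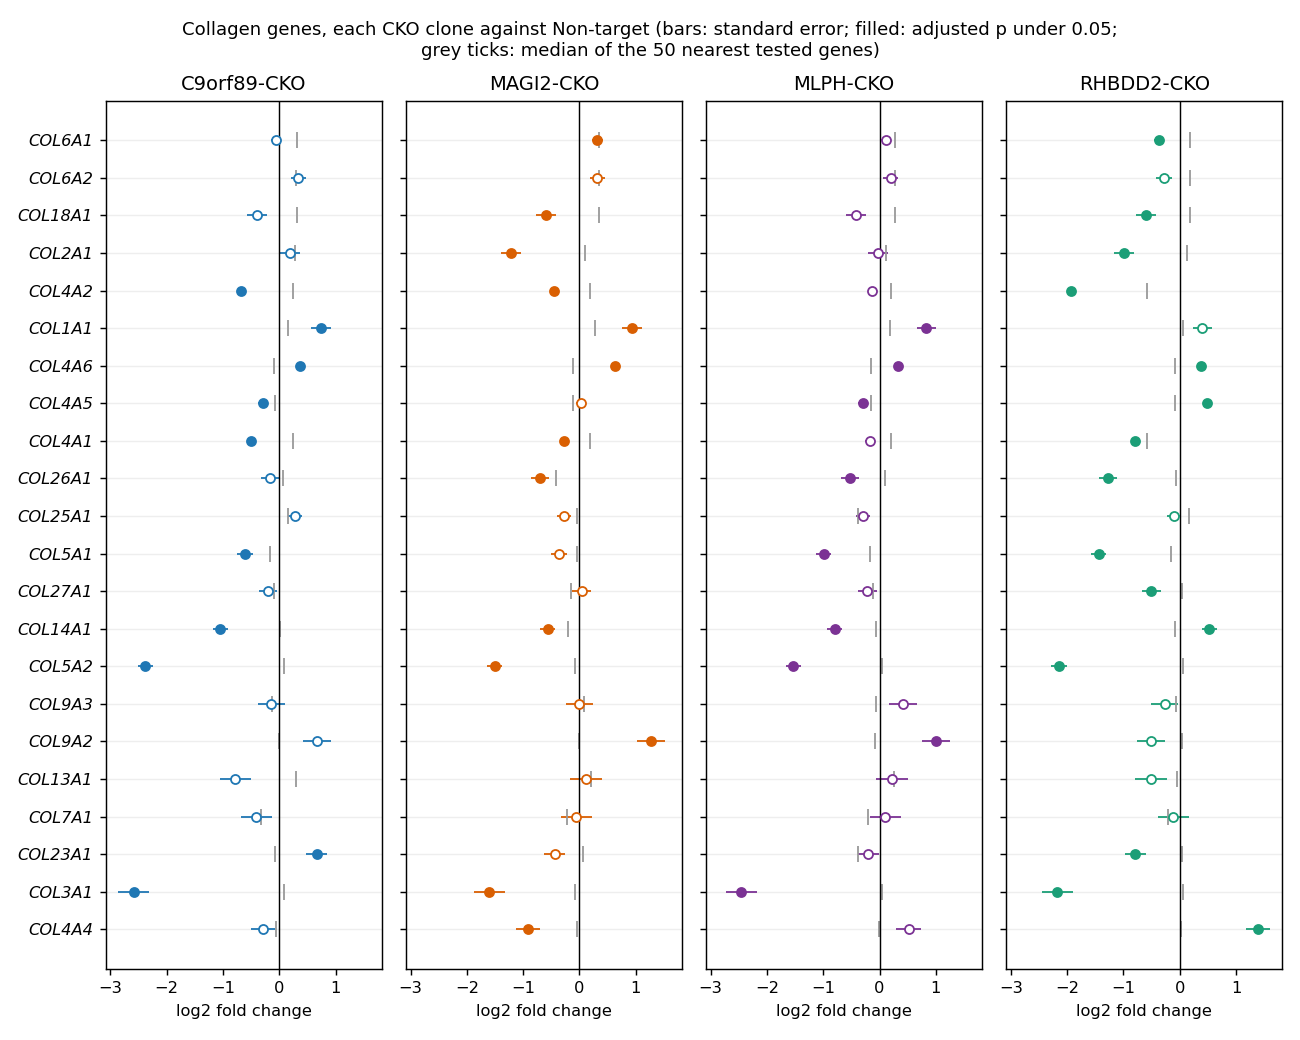
Log2 fold change of each tested collagen gene in each CKO clone against Non-target, with its standard error as a bar and filled points where the adjusted p was under 0.05. Grey ticks give the median of the 50 nearest tested genes on the chromosome. COL3A1 and COL5A2 lie at -1.51 or below in all 4 clones, and COL4A2 at -1.93 in RHBDD2-CKO.

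The fibrillar genes held the largest falls. COL5A2, a chain of type V collagen that helps start fibrils, stood at 2.99, 2.79 and 3.10 FPKM in replicates 1, 2 and 3 of Non-target, and values are given in this order throughout. It was 0.479, 0.529 and 0.459 in C9orf89-CKO and 1.04, 0.989 and 0.901 in MAGI2-CKO. It was 0.838, 0.997 and 1.05 in MLPH-CKO and 0.731, 0.547 and 0.520 in RHBDD2-CKO. Every clone library lay below every Non-target library. Each log2 fold change had a standard error of 0.14. It was -2.14 for RHBDD2-CKO (adjusted p = 2.17e-07), -1.53 for MLPH-CKO (4.48e-06), -1.51 for MAGI2-CKO (3.47e-06) and -2.38 for C9orf89-CKO (1.06e-07). Among the clones, COL5A2 was higher in MAGI2-CKO and in MLPH-CKO than in C9orf89-CKO, by 0.87 and 0.85 on the log2 scale.

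COL3A1 encodes the chain of type III collagen, which mixes with type I fibrils in soft tissue. It was 1.01, 1.38 and 1.47 FPKM in Non-target, 0.116, 0.114 and 0.159 in C9orf89-CKO, and 0.333, 0.356 and 0.369 in MAGI2-CKO. MLPH-CKO had 0.169, 0.0701 and 0.240 FPKM and RHBDD2-CKO 0.186, 0.191 and 0.235. Again the 4 clones did not overlap with Non-target. The log2 fold change of COL3A1 was -2.59 ± 0.27 (SE) in C9orf89-CKO, -2.46 in MLPH-CKO, -2.18 in RHBDD2-CKO and -1.60 in MAGI2-CKO. Since Non-target alone took COL3A1 past the filter, these differences are partly fixed by it and are given with no test. COL3A1 and COL5A2 lie tail to tail on chromosome 2 in GRCh38, at chr2:188974320-189012746 and chr2:189031896-189225312, with 19149 bases between them. The 50 tested genes nearest to them had a median log2 fold change between -0.08 and 0.08 in the 4 clones.

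COL11A1, a chain of type XI collagen that sits in the core of cartilage fibrils, was under the filter, and Non-target again lay above every clone library. Non-target had 0.274, 0.178 and 0.276 FPKM, from 109 fragments in all. The 3 libraries of C9orf89-CKO held 1 fragment together, those of MAGI2-CKO held 5, and those of MLPH-CKO and RHBDD2-CKO held none. With a floor of 3 fragments per library, COL11A1 was at least 13.6-fold lower in MLPH-CKO and at least 12.6-fold lower in RHBDD2-CKO. In the fit without the filter its adjusted p lay between 4.04e-06 and 5.68e-06 in the 4 clones. The floor covers counting error only.

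COL5A1, the partner of COL5A2 in type V collagen, was 3.58, 3.86 and 3.75 FPKM in Non-target, 2.70, 2.30 and 2.26 in C9orf89-CKO and 2.74, 2.88 and 3.03 in MAGI2-CKO. It was 1.63, 1.72 and 2.16 FPKM in MLPH-CKO and 1.05, 1.55 and 1.40 in RHBDD2-CKO. All clone libraries lay below Non-target, and RHBDD2-CKO lay below all others. COL5A1 fell by 0.61 in C9orf89-CKO (adjusted p = 0.00522), by 1.00 in MLPH-CKO (0.000143) and by 1.44 in RHBDD2-CKO (6.23e-06) on the log2 scale. In MAGI2-CKO its log2 fold change was -0.36 and did not pass (adjusted p = 0.0536), though it did without the replicate 1 libraries (0.0460). The ratio of COL5A1 to COL5A2 FPKM was 1.26 ± 0.105 in Non-target (SD, n = 3) and 4.97 ± 0.640 in C9orf89-CKO and 2.97 ± 0.371 in MAGI2-CKO. This ratio was 2.32 ± 0.770 in RHBDD2-CKO and 1.90 ± 0.166 in MLPH-CKO. Each clone's libraries lay above those of Non-target, with a two-sided exact permutation p of 0.1, the smallest that 3 libraries against 3 allow.

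COL1A1 moved the other way. This gene encodes the main chain of type I collagen, and its level was 2.24, 2.66 and 2.39 FPKM in Non-target. It was 4.06, 4.26 and 4.03 FPKM in C9orf89-CKO, 3.91, 5.03 and 5.29 in MAGI2-CKO, 3.33, 4.68 and 5.42 in MLPH-CKO and 2.60, 3.79 and 3.43 in RHBDD2-CKO. C9orf89-CKO, MAGI2-CKO and MLPH-CKO lay wholly above Non-target, but the lowest RHBDD2-CKO library, at 2.60, lay below the highest Non-target library. COL1A1 rose by 0.74 on the log2 scale in C9orf89-CKO (adjusted p = 0.00739), by 0.93 in MAGI2-CKO (0.00110) and by 0.83 in MLPH-CKO (0.00311). In RHBDD2-CKO the log2 difference of 0.40 did not pass (0.0939), whereas without the replicate 1 libraries it was 0.50 and passed (0.00538).

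COL2A1, the chain of the cartilage fibril collagen, was the fibrillar gene with the highest level. It was 11.2, 14.5 and 14.6 FPKM in Non-target, 14.0, 15.8 and 16.0 in C9orf89-CKO and 10.6, 12.5 and 16.9 in MLPH-CKO. MAGI2-CKO had 4.64, 6.30 and 6.28 FPKM and RHBDD2-CKO 5.60, 7.68 and 6.84. These clones lay below all libraries of the other groups. COL2A1 fell by 1.22 ± 0.18 (SE) on the log2 scale in MAGI2-CKO (adjusted p = 0.000176) and by 0.99 in RHBDD2-CKO (0.00103). COL27A1, a fibrillar collagen of cartilage, was 2.16, 1.58 and 1.58 FPKM in Non-target, 2.00, 1.33 and 1.30 in C9orf89-CKO and 1.94, 1.93 and 1.60 in MAGI2-CKO. MLPH-CKO had 1.33, 1.51 and 1.68 FPKM and RHBDD2-CKO had 1.23, 1.19 and 1.20. It fell by 0.51 on the log2 scale in RHBDD2-CKO (adjusted p = 0.0326), a call that was lost without the first Non-target library (0.124), without any of the RHBDD2-CKO libraries (0.0601 to 0.0772) or with no filter on low values (0.0619).

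**Figure D3:**
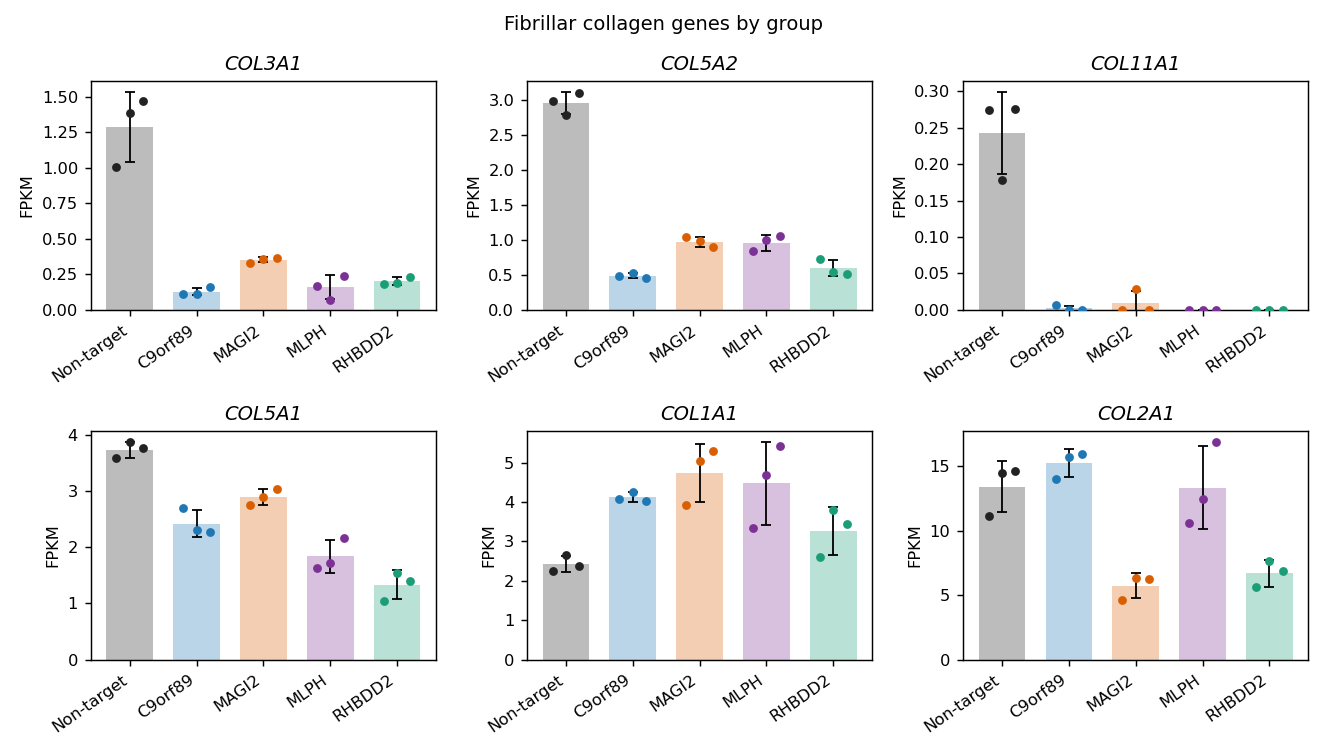
FPKM of 6 fibrillar collagen genes, with bars for the group mean, error bars for the SD of 3 libraries and points for the libraries in the order of their replicate numbers. COL3A1, COL5A2 and COL11A1 are highest in Non-target in every library, whereas COL2A1 is low in MAGI2-CKO and RHBDD2-CKO.

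By list, the fibrillar genes tested gave none higher and 5 lower in RHBDD2-CKO, and 1 higher and 3 lower in each other clone. These counts are over 6 genes, 1 of which, COL3A1, is lower in every clone and passed the filter through Non-target alone. Of all genes, 17.4% were higher and 16.7% lower in RHBDD2-CKO, and 12.9% to 17% were higher and 13.1% to 19.1% lower in the other clones. The summed level of the 11 fibrillar genes was 26.6 ± 2.08 FPKM in Non-target, 14.1 ± 1.79 in RHBDD2-CKO and 17.2 ± 1.61 in MAGI2-CKO (SD, n = 3), and it was 22.8 ± 4.99 in MLPH-CKO and 24.6 ± 0.383 in C9orf89-CKO. Since fibrillar collagens mark stromal cells, 11 fibroblast markers were examined beside them. Their summed level was 8.56 ± 1.21 FPKM in Non-target and 4.36, 5.10, 4.28 and 3.52 in the clones of C9orf89, MAGI2, MLPH and RHBDD2. Most of it was TWIST2, a transcription factor, at 6.79 FPKM in Non-target and 3.36, 3.93, 3.37 and 2.24 in the clones, and it was the sole marker of this list that passed the filter. DCN and THY1 stayed below 0.1 FPKM in every library, and FAP had no fragment in any. Endothelial markers summed to at most 0.229 FPKM in a group and myeloid markers to at most 0.455, with MPO and CTSG at 0 in every library. The part of TWIST2 or of other cells in the collagen differences was not tested.

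Type IV collagen genes lie in head-to-head pairs, and members of a pair did not always change together. COL4A1 and COL4A2 encode the chains of the common basement membrane network and overlap at their starts on chromosome 13, at chr13:110148963-110307233 and chr13:110305812-110513209 in GRCh38. COL4A4 and COL4A3, chains of the glomerular network, start 111 bases apart on chromosome 2. COL4A6 and COL4A5, which enter the networks of smooth muscle and epithelium, start 346 bases apart on chromosome X. The upstream sequences of COL4A3, COL4A5 and COL4A6 are shown because each lies between the genes of a pair whose values are compared below. They come from RefSeq (GRCh38.p14), outside any exon, and read towards the named gene. Capitals mark the CCAAT box (CCAAT, or ATTGG on the other strand) and the GC box (GGGCGG, or CCGCCC on the other strand).
COL4A3 (chr2:227164454-227164564, plus strand): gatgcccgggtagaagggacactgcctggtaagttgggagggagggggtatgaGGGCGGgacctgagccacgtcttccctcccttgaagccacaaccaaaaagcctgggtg
COL4A5 (chrX:108439588-108439837, plus strand): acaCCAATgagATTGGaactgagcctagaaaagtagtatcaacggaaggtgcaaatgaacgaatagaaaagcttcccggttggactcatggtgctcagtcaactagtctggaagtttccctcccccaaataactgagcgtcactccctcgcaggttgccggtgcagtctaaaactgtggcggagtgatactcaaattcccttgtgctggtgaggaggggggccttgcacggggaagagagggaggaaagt
COL4A6 (chrX:108439498-108439708, minus strand): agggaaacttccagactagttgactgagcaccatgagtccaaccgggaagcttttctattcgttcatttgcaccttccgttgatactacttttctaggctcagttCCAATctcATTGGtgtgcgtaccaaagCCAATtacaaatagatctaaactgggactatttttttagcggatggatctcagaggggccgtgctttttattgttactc

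The stretch between COL4A4 and COL4A3 held 1 GC box and no CCAAT box, whereas that of COL4A5 held 2 CCAAT boxes and that of COL4A6 held 3, with no GC box. The stretches of COL4A5 and COL4A6 overlap. Both CCAAT boxes of the COL4A5 stretch are the same bases as 2 of those in the COL4A6 stretch, read on the other strand. They are therefore not further sites. None of the 3 stretches held the TATA box (TATAAA, or TTTATA on the other strand). COL4A6 has a further RefSeq window, before a start inside the gene, whose stretch at chrX:108438431-108438672 held 1 GC box and no CCAAT box. The FPKM of COL4A6 does not separate the 2 starts. Over the 250 bases upstream of the starts in all 35116 RefSeq windows, 32.0% held a CCAAT box, 42.6% a GC box and 10.7% a TATA box. Of the 44 windows found for 32 of the collagen genes, 12, 24 and 8 held them. A match is a description of letters and not of binding.

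COL4A2 had the largest fall of the type IV genes. It was 7.45, 7.75 and 7.58 FPKM in Non-target, 4.87, 4.54 and 4.77 in C9orf89-CKO and 4.94, 5.47 and 6.21 in MAGI2-CKO. It was 6.62, 6.82 and 7.29 FPKM in MLPH-CKO and 2.02, 1.90 and 1.84 in RHBDD2-CKO. The RHBDD2-CKO libraries lay far below all others. On the log2 scale COL4A2 fell by 1.93 ± 0.08 (SE) in RHBDD2-CKO (adjusted p = 3.28e-09), by 0.67 in C9orf89-CKO (4.80e-05) and by 0.45 in MAGI2-CKO (0.000598), while a log2 fold change of -0.14 in MLPH-CKO did not pass (0.222). In rank among the 44 genes, COL4A2 was number 5 in the other groups and number 11 in RHBDD2-CKO.

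COL4A1 moved in the same clones with smaller values. It was 3.84, 3.99 and 4.28 FPKM in Non-target, 2.94, 2.63 and 2.94 in C9orf89-CKO and 3.11, 3.28 and 3.61 in MAGI2-CKO. In RHBDD2-CKO it was 2.45, 2.30 and 2.14 FPKM, and in MLPH-CKO 3.55, 3.54 and 3.60. Non-target lay above every clone library. COL4A1 fell by 0.79 on the log2 scale in RHBDD2-CKO (adjusted p = 1.01e-05), by 0.50 in C9orf89-CKO (0.000559) and by 0.27 in MAGI2-CKO (0.0168). The MAGI2-CKO call was lost without the third Non-target library (0.0727), without the first or second MAGI2-CKO library (0.0680 and 0.0526) and without all replicate 1 libraries (0.0573). In MLPH-CKO the log2 fold change of -0.17 did not pass (0.118). The 50 tested genes nearest to this pair had a median log2 fold change of -0.58 in RHBDD2-CKO and between 0.18 and 0.25 in the other clones, and the part of this neighbourhood in the 2 values was not tested. The ratio of COL4A2 to COL4A1 FPKM was 1.88 ± 0.0972 in Non-target (SD, n = 3) and 0.837 ± 0.0204 in RHBDD2-CKO. It was 1.94 ± 0.0812 in MLPH-CKO, 1.66 ± 0.0648 in MAGI2-CKO and 1.67 ± 0.0513 in C9orf89-CKO. RHBDD2-CKO was thus the group in which COL4A1 exceeded COL4A2 in every library, with an exact permutation p of 0.1 against Non-target, the smallest possible.

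COL4A6 was higher in every clone. It was 2.80, 2.79 and 2.84 FPKM in Non-target, 3.58, 4.04 and 3.41 in C9orf89-CKO and 4.56, 4.19 and 4.55 in MAGI2-CKO. The level was 3.87, 3.80 and 3.44 FPKM in RHBDD2-CKO and 3.49, 3.61 and 3.63 in MLPH-CKO. No clone library overlapped with Non-target. COL4A6 rose by 0.64 on the log2 scale in MAGI2-CKO (adjusted p = 2.61e-05), by 0.38 in RHBDD2-CKO (0.00158), by 0.37 in C9orf89-CKO (0.00258) and by 0.34 in MLPH-CKO (0.00413). Its neighbour COL4A5, mutated in X-linked Alport syndrome, rose with it in RHBDD2-CKO only. COL4A5 was 3.64, 3.59 and 3.46 FPKM in Non-target, 3.11, 2.86 and 2.72 in C9orf89-CKO and 3.49, 3.90 and 3.52 in MAGI2-CKO. MLPH-CKO had 2.64, 2.76 and 3.27 FPKM and RHBDD2-CKO had 4.90, 5.13 and 5.15. RHBDD2-CKO lay above all others, and C9orf89-CKO and MLPH-CKO lay below Non-target. COL4A5 rose by 0.49 on the log2 scale in RHBDD2-CKO (adjusted p = 0.000710) and fell by 0.29 in C9orf89-CKO (0.0220) and by 0.30 in MLPH-CKO (0.0179). Each of the falls was lost when any of several single libraries was left out, with adjusted p up to 0.0840 in C9orf89-CKO (without the third library of this clone) and up to 0.0681 in MLPH-CKO (without the first library of that clone). Without all replicate 1 libraries the MLPH-CKO value was 0.114. The ratio of COL4A5 to COL4A6 was 1.27 ± 0.0453 in Non-target and 1.37 ± 0.118 in RHBDD2-CKO, and it was 0.808 ± 0.0819 in MLPH-CKO, 0.823 ± 0.0928 in MAGI2-CKO and 0.791 ± 0.0813 in C9orf89-CKO. The exact permutation p against Non-target was 0.3 for RHBDD2-CKO and 0.1 for each other clone.

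COL4A4 was scarce in every group and highest in RHBDD2-CKO. Its mean was 0.278 ± 0.0192 FPKM in Non-target, 0.210 ± 0.0426 in C9orf89-CKO and 0.102 ± 0.0256 in MAGI2-CKO. In RHBDD2-CKO it was 0.890 ± 0.0492 FPKM, and in MLPH-CKO 0.443 ± 0.0711 (SD, n = 3), from 60 fragments in MAGI2-CKO to 460 in RHBDD2-CKO. COL4A4 passed the filter only in 4 libraries, through RHBDD2-CKO and the highest MLPH-CKO library, so its log2 difference of 1.39 in RHBDD2-CKO is partly fixed by the filter and is given with no test. It fell by 0.91 on the log2 scale in MAGI2-CKO (adjusted p = 0.00507). COL4A3, under the filter, was 0.0614, 0.135 and 0.0937 FPKM in Non-target and 0.308, 0.330 and 0.236 in RHBDD2-CKO. Those 2 groups did not overlap, and no library of the other clones was above 0.102 FPKM. In the fit without the filter its log2 difference was 1.00 in RHBDD2-CKO (adjusted p = 0.00858) and -0.78 in MAGI2-CKO (0.0299).

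**Figure D4:**
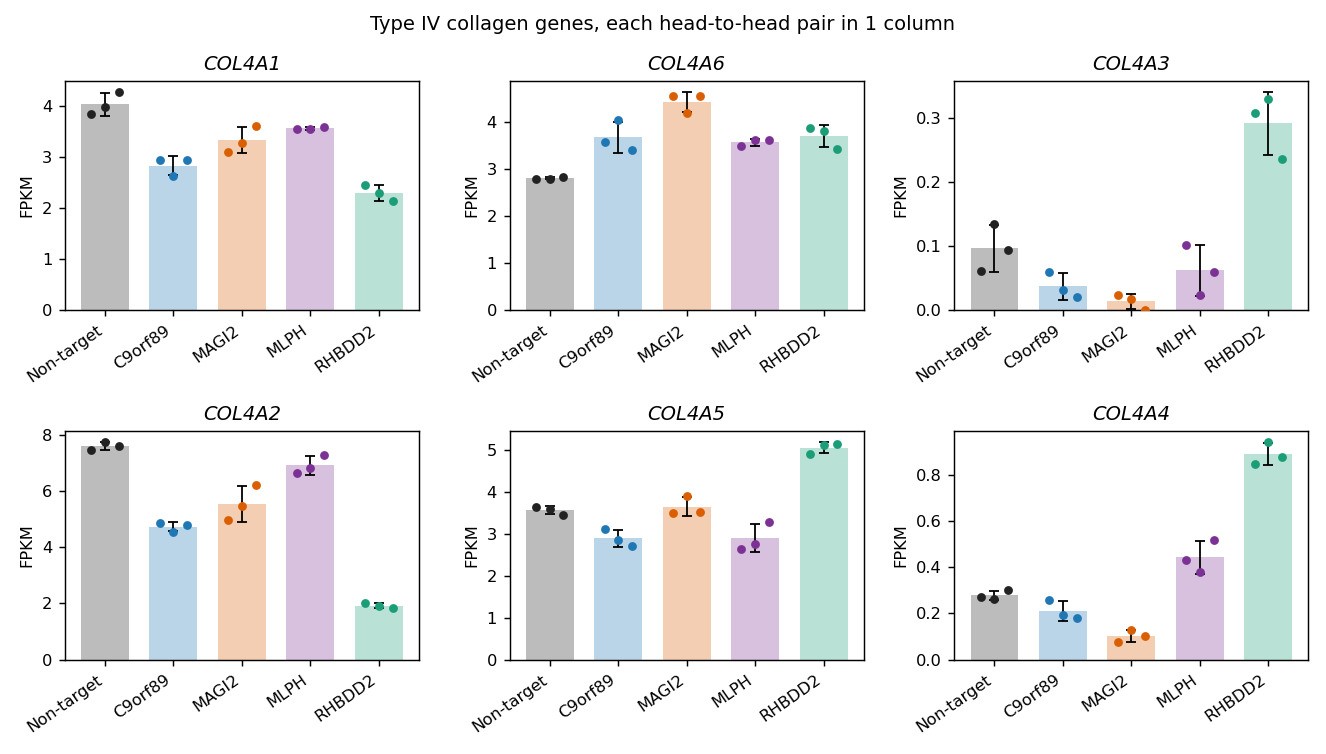
FPKM of the 6 type IV collagen genes, with each head-to-head pair in 1 column, bars for group means, error bars for the SD of 3 libraries and points for libraries. In RHBDD2-CKO, COL4A1 and COL4A2 are lowest while COL4A3, COL4A4 and COL4A5 are highest.

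Of the 5 type IV genes tested, RHBDD2-CKO had 3 higher and 2 lower, MLPH-CKO had 1 of each, and C9orf89-CKO and MAGI2-CKO each had 1 higher and 3 lower. COL4A4, which entered through RHBDD2-CKO, is 1 of the 3 higher genes there, and the shares of all genes are those given for the fibrillar genes. The summed level of the 5 genes with COL4A3 was 18.4 ± 0.272 FPKM in Non-target, 14.4 ± 0.396 in C9orf89-CKO and 17.1 ± 0.897 in MAGI2-CKO. The level was 14.2 ± 0.413 FPKM in RHBDD2-CKO and 17.4 ± 0.810 in MLPH-CKO.

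Type VI collagen, which links basement membranes to the stroma, was represented by COL6A1 and COL6A2. COL6A1 was 26.8, 32.8 and 29.9 FPKM in Non-target, 29.8, 27.6 and 28.4 in C9orf89-CKO and 33.5, 38.3 and 40.2 in MAGI2-CKO. MLPH-CKO had 29.8, 33.5 and 33.6 FPKM and RHBDD2-CKO had 21.1, 24.6 and 23.4. MAGI2-CKO lay above Non-target and RHBDD2-CKO below it, without overlap. COL6A1 rose by 0.32 on the log2 scale in MAGI2-CKO (adjusted p = 0.0141) and fell by 0.37 in RHBDD2-CKO (0.00685). The rise was lost without the first Non-target library (0.0601) or without the second or the third MAGI2-CKO library (0.0505 and 0.0623). COL6A2 was 10.7, 14.3 and 14.0 FPKM in Non-target, 15.2, 16.5 and 17.4 in C9orf89-CKO and 13.4, 17.1 and 18.0 in MAGI2-CKO. In RHBDD2-CKO it was 9.28, 11.6 and 11.0 FPKM, and in MLPH-CKO 13.4, 15.2 and 16.1. It did not pass in any clone against Non-target (adjusted p between 0.0849 and 0.300), but it was lower in RHBDD2-CKO than in each other clone, by 0.48 to 0.62 on the log2 scale. Without the replicate 1 libraries COL6A2 passed in 3 clones, with a log2 difference of -0.32 in RHBDD2-CKO (adjusted p = 0.00289), 0.31 in MAGI2-CKO (0.00312) and 0.26 in C9orf89-CKO (0.0102), and did not in MLPH-CKO (0.0781). The replicate 1 library was the lowest of its group for COL6A2 in all 5 groups. With the replicate number as a block, COL6A2 passed in every clone.

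COL18A1 encodes the basement membrane collagen from which endostatin is cut. It was 11.8, 16.9 and 14.6 FPKM in Non-target, 10.6, 10.3 and 11.8 in C9orf89-CKO and 7.60, 10.1 and 11.0 in MAGI2-CKO. The level was 7.56, 11.1 and 9.80 FPKM in RHBDD2-CKO and 8.83, 11.2 and 12.1 in MLPH-CKO. The libraries of MAGI2-CKO and RHBDD2-CKO lay below Non-target, and so did those of C9orf89-CKO, whose highest value nearly equalled the lowest of Non-target. MLPH-CKO overlapped with it. COL18A1 fell by 0.59 ± 0.18 (SE) in MAGI2-CKO (adjusted p = 0.0204) and by 0.61 in RHBDD2-CKO (0.0189) on the log2 scale. Both calls were lost without the second or the third Non-target library (0.0539 to 0.0870) or without the first library of the clone (0.0887 and 0.0769). The log2 differences of -0.43 in MLPH-CKO and -0.39 in C9orf89-CKO did not pass (adjusted p = 0.0901 and 0.131), but they did without the replicate 1 libraries (0.0136 and 0.00840). In the annotation, 16.4% of the exon bases of COL18A1 overlap exons of SLC19A1 on the other strand, and whether fragments were counted by strand is not given in the sources used here. COL18A1, COL6A1 and COL6A2 all lie on chromosome 21, where the 50 nearest tested genes had a median log2 fold change between 0.18 and 0.35 in the clones.

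COL14A1, a fibril-associated collagen, was 1.61, 1.79 and 1.89 FPKM in Non-target, 0.953, 0.745 and 0.722 in C9orf89-CKO and 1.13, 1.19 and 1.16 in MAGI2-CKO. MLPH-CKO had 0.836, 1.03 and 1.07 FPKM and RHBDD2-CKO had 2.25, 2.58 and 2.94. RHBDD2-CKO lay above Non-target and the other clones below it, with no overlap. On the log2 scale it rose by 0.52 in RHBDD2-CKO (adjusted p = 0.00902) and fell by 1.05 in C9orf89-CKO (0.000108), by 0.56 in MAGI2-CKO (0.00545) and by 0.80 in MLPH-CKO (0.000705). The type IX chains coat cartilage fibrils. COL9A2 was 0.473, 0.490 and 0.568 FPKM in Non-target, 1.05, 0.685 and 0.911 in C9orf89-CKO and 1.16, 1.20 and 1.82 in MAGI2-CKO. RHBDD2-CKO stood at 0.522, 0.280 and 0.233 FPKM and MLPH-CKO at 0.987, 1.02 and 1.38. It rose by 1.27 ± 0.25 (SE) in MAGI2-CKO (adjusted p = 0.00165) and by 1.00 in MLPH-CKO (0.00920), and the log2 difference of 0.67 in C9orf89-CKO did not pass (0.0684). In RHBDD2-CKO the log2 difference of -0.51 did not pass (0.142), and without the replicate 1 libraries it was -0.82 (0.0387). COL9A3 was 0.965, 0.881 and 1.14 FPKM in Non-target, 1.10, 0.746 and 0.855 in C9orf89-CKO and 1.17, 0.852 and 0.974 in MAGI2-CKO. The level was 1.30, 0.695 and 0.571 FPKM in RHBDD2-CKO and 1.61, 1.29 and 1.21 in MLPH-CKO. COL9A3 passed in no clone, but without the replicate 1 libraries its log2 difference in RHBDD2-CKO was -0.59 (adjusted p = 0.0358).

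COL26A1, a small collagen first described in testis and ovary, was 4.09, 4.65 and 4.62 FPKM in Non-target, 3.59, 4.86 and 3.57 in C9orf89-CKO and 2.43, 2.42 and 3.30 in MAGI2-CKO. MLPH-CKO had 3.54, 2.51 and 3.21 FPKM and RHBDD2-CKO had 1.59, 1.93 and 1.87. MAGI2-CKO, MLPH-CKO and RHBDD2-CKO lay below Non-target, and RHBDD2-CKO lay below every other group. It fell by 1.27 on the log2 scale in RHBDD2-CKO (adjusted p = 6.51e-05), by 0.71 in MAGI2-CKO (0.00386) and by 0.53 in MLPH-CKO (0.0245). The MLPH-CKO call was lost without the second or the third Non-target library (0.0718 and 0.0735) or the second MLPH-CKO library (0.110). Its 50 nearest tested genes had a median of -0.41 in MAGI2-CKO, the part of which was not tested, and of -0.07 in RHBDD2-CKO.

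The transmembrane collagens are anchored in the cell membrane and can be shed from it. COL25A1, found in neurons, was 2.99, 2.61 and 2.29 FPKM in Non-target, 3.55, 3.02 and 3.06 in C9orf89-CKO and 2.04, 2.32 and 2.06 in MAGI2-CKO. RHBDD2-CKO stood at 2.91, 2.21 and 2.25 FPKM and MLPH-CKO at 2.04, 2.06 and 2.27. COL25A1 passed in no clone against Non-target, but it was higher in C9orf89-CKO than in the other clones, by 0.56 on the log2 scale against MAGI2-CKO, 0.57 against MLPH-CKO and 0.38 against RHBDD2-CKO. COL13A1, found at the neuromuscular junction, was 0.857, 0.867 and 0.987 FPKM in Non-target, 0.555, 0.283 and 0.693 in C9orf89-CKO and 1.22, 0.841 and 0.914 in MAGI2-CKO. The level was 0.842, 0.391 and 0.658 FPKM in RHBDD2-CKO and 1.30, 0.956 and 0.973 in MLPH-CKO. It also passed in no clone against Non-target, with a smallest adjusted p of 0.0605 in C9orf89-CKO, where it passed with the replicate number as a block. Among the clones, COL13A1 was higher in MAGI2-CKO and in MLPH-CKO than in C9orf89-CKO, and both differences passed. COL23A1 had means of 0.515 ± 0.112 FPKM in Non-target, 0.865 ± 0.0407 in C9orf89-CKO and 0.351 ± 0.0219 in MAGI2-CKO. MLPH-CKO had 0.431 ± 0.0221 FPKM and RHBDD2-CKO had 0.254 ± 0.0520 (SD, n = 3), from 49 to 167 fragments per group. It fell by 0.79 on the log2 scale in RHBDD2-CKO (adjusted p = 0.00555), a call that was lost with only the 6 libraries of the contrast (0.0502). Its log2 difference of 0.66 in C9orf89-CKO is partly fixed by the filter, which COL23A1 passed through this clone. It is given with no test, and its place among the higher genes counted above was lost without the first or second Non-target library, without the second or the third C9orf89-CKO library and without all replicate 1 libraries. COL7A1, the anchoring fibril collagen of skin, had group means between 0.514 and 0.751 FPKM and passed in no comparison.

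The 14 genes below 0.1 FPKM in every library were COL1A2, COL5A3, COL6A3, COL6A5, COL6A6, COL8A1, COL8A2, COL9A1, COL10A1, COL15A1, COL17A1, COL20A1, COL22A1 and COL28A1, and the highest value among them was 0.0971 FPKM, for COL6A6. Of the other genes under the filter, the fibrillar genes COL24A1 and COL11A2 lay between 0.263 and 0.541 and between 0.124 and 0.395 FPKM over the libraries. The fibril-associated genes COL19A1 and COL16A1 lay between 0.0873 and 0.248 and between 0.00653 and 0.122 FPKM. COL16A1 had 53 fragments in MAGI2-CKO and 35 in RHBDD2-CKO, whose libraries lay above those of Non-target with 13, and in the fit without the filter its adjusted p was 0.0202 and 0.106. COL12A1, a fibril-associated collagen, had a mean of 0.174 ± 0.0469 FPKM in C9orf89-CKO, 0.0723 ± 0.0358 in Non-target and 0.00825 ± 0.00414 in MAGI2-CKO, where it had 6 fragments in all. In the fit without the filter its adjusted p against Non-target was 0.0502 in C9orf89-CKO and 0.0467 in MAGI2-CKO. COL21A1 had a mean of 0.214 FPKM in Non-target and 0.0230 in MLPH-CKO (adjusted p = 0.00217 without the filter).

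Genes that fold, export, trim, bind or break down collagen were described from 5 lists with 83 genes, 65 of them tested. RHBDD2-CKO had 8 of these higher (12.3%) and 22 lower (33.8%), and MAGI2-CKO had 10 higher (15.4%) and 20 lower (30.8%). MLPH-CKO had 11 higher (16.9%) and 14 lower (21.5%), and C9orf89-CKO had 11 of each (16.9%). Beside the shares of all genes given above, the lower genes exceeded the background most in RHBDD2-CKO and MAGI2-CKO. The median log2 fold change of the 65 was -0.11 in RHBDD2-CKO and -0.09 in MAGI2-CKO, and it was 0.04 for MLPH-CKO and 0.05 for C9orf89-CKO.

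DDR2, the discoidin domain receptor that is activated by fibrillar collagen, had a wide range of levels. It was 13.0, 10.1 and 12.0 FPKM in Non-target, 0.305, 0.135 and 0.196 in C9orf89-CKO and 3.80, 3.62 and 3.53 in MAGI2-CKO. RHBDD2-CKO stood at 1.36, 0.985 and 1.01 FPKM and MLPH-CKO at 3.39, 3.08 and 3.21. No clone overlapped with Non-target. It fell by 5.27 on the log2 scale in C9orf89-CKO (adjusted p = 1.60e-09), by 3.28 in RHBDD2-CKO (4.11e-08), by 1.82 in MLPH-CKO (7.94e-06) and by 1.65 in MAGI2-CKO (1.26e-05). MRC2, an endocytic collagen receptor, was 8.47, 10.3 and 9.49 FPKM in Non-target and 1.42, 1.76 and 1.79 in RHBDD2-CKO, a fall of 2.44 on the log2 scale (adjusted p = 1.39e-08). It also fell by 0.49 in MAGI2-CKO (0.00543) and by 0.46 in MLPH-CKO (0.00973). ITGB1, the beta chain of the collagen-binding integrins, rose from 22.7 ± 1.23 FPKM by 0.42 on the log2 scale in C9orf89-CKO (adjusted p = 0.00236), by 0.26 in MAGI2-CKO (0.0255) and by 0.52 in MLPH-CKO (0.000395), and its log2 fold change in RHBDD2-CKO was -0.02 (0.864). The rise of ITGB1 in MAGI2-CKO was lost without the first or second library of either group (adjusted p between 0.0624 and 0.0970) and without all replicate 1 libraries (0.0608). Of the 7 receptors tested, RHBDD2-CKO had 1 higher and 2 lower, MLPH-CKO 3 and 2, MAGI2-CKO 1 and 3, and C9orf89-CKO 2 and 1. These counts, and those of the lists that follow, stand beside 17.4% higher and 16.7% lower of all genes in RHBDD2-CKO, 14.5% and 15.5% in MLPH-CKO, 17% and 19.1% in MAGI2-CKO and 12.9% and 13.1% in C9orf89-CKO.

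Of the 20 modification and folding genes tested, RHBDD2-CKO had 2 higher and 8 lower, MLPH-CKO 2 and 5, MAGI2-CKO 4 and 10, and C9orf89-CKO 1 and 6. As shares called in either direction these were 50%, 35%, 70% and 35%, where 34.1%, 30.1%, 36.1% and 26% of all genes were called. SERPINH1, the collagen chaperone HSP47, was 22.2, 26.2 and 25.9 FPKM in Non-target, 15.5, 16.6 and 18.9 in C9orf89-CKO and 17.2, 18.2 and 19.9 in MAGI2-CKO. The level was 17.7, 19.3 and 19.7 FPKM in RHBDD2-CKO and 16.3, 18.3 and 18.0 in MLPH-CKO. All clone libraries lay below Non-target, and SERPINH1 fell by 0.54 on the log2 scale in C9orf89-CKO (adjusted p = 0.000784), by 0.49 in MLPH-CKO (0.00125), by 0.42 in MAGI2-CKO (0.00264) and by 0.38 in RHBDD2-CKO (0.00537). FKBP10, a prolyl isomerase of procollagen, was 90.6 ± 5.13 FPKM in Non-target, 120 ± 3.20 in MAGI2-CKO and 44.8 ± 2.31 in RHBDD2-CKO (SD, n = 3), a rise of 0.41 (adjusted p = 0.000196) and a fall of 1.01 (1.18e-07). TMEM38B, an ion channel of the endoplasmic reticulum that collagen processing needs, was 17.4 ± 0.416 FPKM in Non-target, 9.67 ± 0.669 in C9orf89-CKO and 8.08 ± 0.302 in MAGI2-CKO, with falls of 0.84 (6.23e-06) and 1.10 (3.73e-07). P4HB, the beta subunit of prolyl hydroxylase, was 108 ± 12.5 FPKM in Non-target and passed in no clone (adjusted p between 0.0780 and 0.968). Without the replicate 1 libraries P4HB passed in C9orf89-CKO (0.00137) and in RHBDD2-CKO (0.00970).

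Of the 14 export genes, all tested, RHBDD2-CKO had 2 higher and 3 lower, MLPH-CKO 1 and 2, MAGI2-CKO none and 1, and C9orf89-CKO 3 and 2. The share called was thus 7.14% in MAGI2-CKO and 21.4% in MLPH-CKO, below the 36.1% and 30.1% of all genes, and it was 35.7% in each other clone, beside 34.1% of all genes in RHBDD2-CKO and 26% in C9orf89-CKO. Of the 12 processing and cross-linking genes tested, RHBDD2-CKO had 2 higher and 5 lower, MLPH-CKO 2 and 3, MAGI2-CKO 4 and 3, and C9orf89-CKO 4 and 1. Called in either direction were 58.3%, 41.7%, 58.3% and 41.7%, beside the same shares of all genes as for the folding genes. TLL1 and TLL2 are among these 12 genes and passed the filter only through clone libraries, so the shares are partly fixed by it. Their highest Non-target values were 0.232 and 0.461 FPKM. PXDN, the peroxidase that cross-links type IV collagen, was 8.27, 8.17 and 9.44 FPKM in Non-target, 7.47, 8.36 and 7.70 in C9orf89-CKO and 4.40, 5.08 and 5.05 in MAGI2-CKO. MLPH-CKO had 3.04, 3.22 and 3.37 FPKM and RHBDD2-CKO had 2.72, 2.52 and 2.54. All libraries of MAGI2-CKO, MLPH-CKO and RHBDD2-CKO lay below Non-target and C9orf89-CKO. PXDN fell by 1.69 on the log2 scale in RHBDD2-CKO (adjusted p = 1.38e-08), by 1.40 in MLPH-CKO (9.71e-08) and by 0.82 in MAGI2-CKO (6.68e-06). ADAMTS2, which removes the amino-terminal propeptide of procollagen, was 1.08 ± 0.203 FPKM in Non-target and rose by 0.72 in C9orf89-CKO (adjusted p = 0.00469) and 0.74 in MAGI2-CKO (0.00268), while it fell by 1.07 in RHBDD2-CKO (0.000235). TLL1, a procollagen proteinase, was 0.201 ± 0.0267 FPKM in Non-target and 0.828 ± 0.0648 in RHBDD2-CKO, a log2 difference of 1.62. It reached 0.5 FPKM in the 3 libraries of RHBDD2-CKO alone, so this difference is partly fixed by the filter. Its rises of 0.66 in C9orf89-CKO (adjusted p = 0.0227) and 0.61 in MAGI2-CKO (0.0238) were lost after quantile normalization (0.119 and 0.298), without all replicate 1 libraries (0.0657 and 0.124) and when any of several single libraries was left out (up to 0.0721 and 0.0690).

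Of the 12 breakdown genes and inhibitors tested, RHBDD2-CKO had 1 higher and 4 lower, MLPH-CKO 3 and 2, MAGI2-CKO 1 and 3, and C9orf89-CKO 1 of each. The share called in either direction was 16.7% in C9orf89-CKO and 33.3% in MAGI2-CKO, below the 26% and 36.1% of all genes. It was 41.7% in the other clones, beside 30.1% in MLPH-CKO and 34.1% in RHBDD2-CKO. CTSK and MMP14 are among these 12 genes and passed the filter only through clone libraries, so the shares are partly fixed by it. MMP14 was at least 0.540 FPKM in MLPH-CKO and at most 0.279 in Non-target. MMP2, a gelatinase that also cuts type IV collagen, was 1.31, 1.28 and 1.47 FPKM in Non-target, 1.31, 1.41 and 1.03 in C9orf89-CKO and 0.835, 0.888 and 0.779 in MAGI2-CKO. RHBDD2-CKO stood at 0.179, 0.227 and 0.162 FPKM and MLPH-CKO at 0.822, 0.882 and 0.708. The RHBDD2-CKO libraries lay below all others. MMP2 fell by 0.64 (adjusted p = 0.00515), 0.69 (0.00406) and 2.33 (2.43e-07) on the log2 scale in MAGI2-CKO, MLPH-CKO and RHBDD2-CKO. CTSK, a collagen-cleaving cathepsin, was 0.194 ± 0.0321 FPKM in Non-target, 0.504 ± 0.104 in C9orf89-CKO and 0.300 ± 0.0476 in MAGI2-CKO. The level was 0.605 ± 0.176 FPKM in RHBDD2-CKO and 0.601 ± 0.141 in MLPH-CKO (SD, n = 3). The log2 difference from Non-target was 1.23 in RHBDD2-CKO, 1.24 in MLPH-CKO and 1.03 in C9orf89-CKO. CTSK passed the filter only through 5 libraries of these 3 clones, so these differences are partly fixed by the filter.

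**Figure D5:**
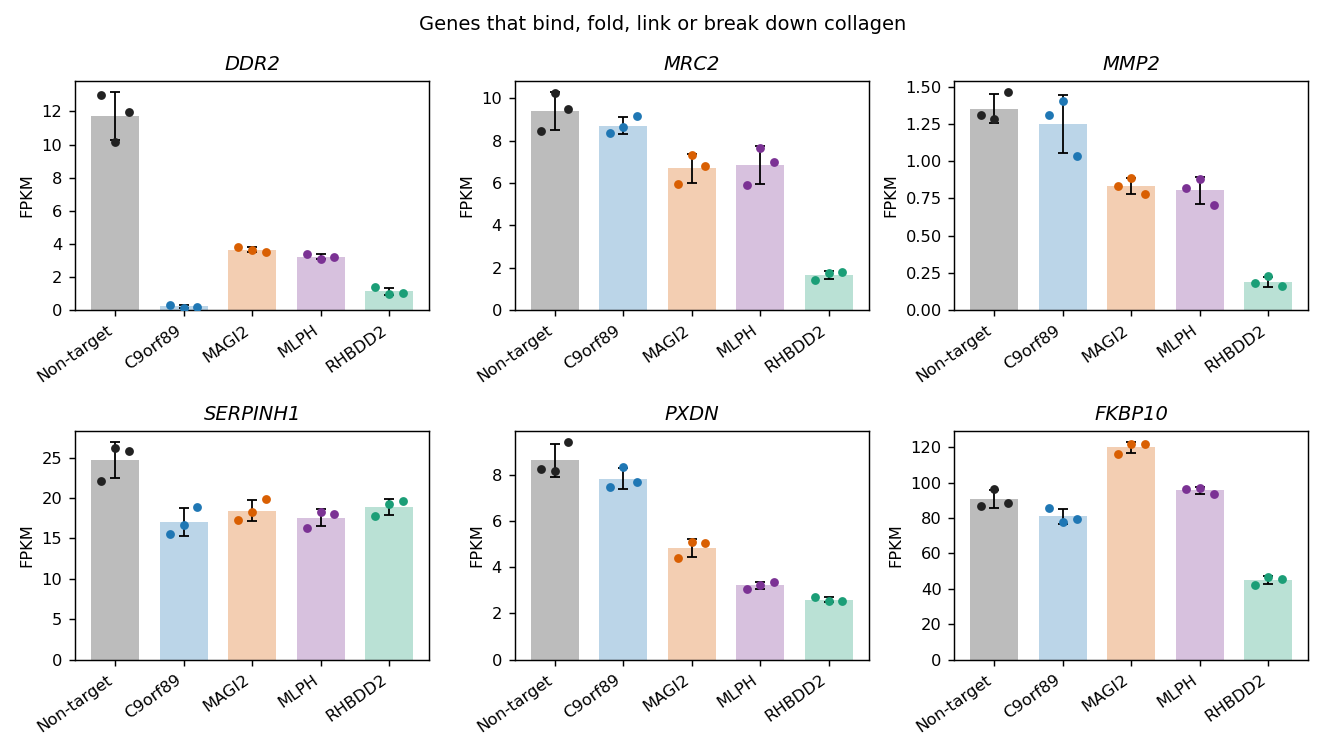
FPKM of 6 genes that bind, fold, cross-link or break down collagen, with bars for group means, error bars for the SD of 3 libraries and points for libraries. DDR2 and SERPINH1 are below Non-target in every clone library, and MRC2, MMP2 and FKBP10 are lowest in RHBDD2-CKO.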

How the data were processed

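Total RNA of HEK293T cells was sequenced from 3 wells per group, and groups follow the deposited labels. The authors deposited 1 table of FPKM per library without naming the unit. It was worked out here: when a value was multiplied by the gene's exon length from GENCODE release 29 and divided by a constant of the library, whole fragments came out within 0.01 for 100% of the values. These fragments gave the depths and the floor of 3 fragments. The submitters' processing notes name HISAT2 2.0.5, featureCounts 1.5.0-p3 and DESeq2, in no stated order. The genome build and the strand setting are not given in the sources used here.

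The test was limma 3.58.1 (R 4.3.3) on log2(FPKM + 0.1), with 5 groups in 1 model and eBayes using the mean-variance trend, over the 16175 genes that reached 0.5 FPKM in 3 or more libraries. Fold changes on this scale understate those of low genes. Benjamini-Hochberg adjustment ran over these genes within each of 10 contrasts, with a threshold of 0.05. Ratios were compared by two-sided exact permutation tests (scipy 1.17.1, Python 3.11.15), and figures were drawn with matplotlib 3.10.9. The fit was tested on simulated data. Alternatives dropped the filter (32715 genes), required a mean of 1 FPKM (12533), used quantile normalization, left out the trend, fitted only the 6 libraries of a contrast, added a block for the replicate number, changed the pseudocount to 1 or 0.01, ran voom on recovered fragments, or left out each library in turn. Leaving out all replicate 1 libraries was added after seeing the data.

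Collagen genes with 1 FPKM or more as the mean of a group are given in every library and other tested ones by group means. The rest are given by range or, below 0.1 FPKM in every library, by the highest value among them. Collagen-handling genes are named where an absolute log2 fold change of at least 1 passed in a clone, together with P4HB, SERPINH1 and ITGB1. COL4A3, COL11A1, COL12A1, COL16A1 and COL21A1 were given in more detail after their values were seen. The members and lists were chosen with earlier results of these data known. A further gene of the list that marks HEK293T is not reported here.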

Additional observations from a re-analysis of the deposited data

Results flagged for a closer look

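Some collagen genes passed the threshold in opposite directions in 2 clones against Non-target, and the difference between those clones passed as well. COL14A1 was higher in RHBDD2-CKO than in C9orf89-CKO by 1.57, than in MAGI2-CKO by 1.09 and than in MLPH-CKO by 1.32 on the log2 scale. COL4A4 was higher in RHBDD2-CKO than in MAGI2-CKO by 2.30. COL4A5 was higher in RHBDD2-CKO than in C9orf89-CKO by 0.79 and than in MLPH-CKO by 0.79. For COL23A1 the log2 difference of RHBDD2-CKO against C9orf89-CKO was -1.46, and for COL6A1 that of RHBDD2-CKO against MAGI2-CKO was -0.69. The values of COL4A4 and COL23A1 are partly fixed by the filter on low values, which they passed through RHBDD2-CKO and C9orf89-CKO. Without the first Non-target library, 1 of the 2 opposite calls of a pair was lost for COL4A5 (adjusted p = 0.0571 in C9orf89-CKO and 0.0513 in MLPH-CKO), for COL6A1 (0.0601 in MAGI2-CKO) and for COL23A1 in C9orf89-CKO. The groups held 3 libraries each, so Dixon's test for an outlying value was not run.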

How the results depend on the processing

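Of 113 collagen changes that passed the threshold over the 10 contrasts, none changed direction under the 25 alternatives, and 78 passed under every alternative in which they were tested. Against Non-target this held for 37 of 47. Both sets include calls of COL3A1, COL4A4 and COL23A1 that are partly fixed by the filter on low values. For those calls, passing again under an alternative is no support. With only the 6 libraries of a contrast 87 of the 113 passed, and without all replicate 1 libraries 98 did. Against Non-target, the 6 libraries alone lost COL4A5 in MLPH-CKO and C9orf89-CKO (adjusted p = 0.0904 and 0.0537), COL23A1 in C9orf89-CKO and RHBDD2-CKO (0.0537 and 0.0502), COL18A1 in RHBDD2-CKO and MAGI2-CKO (0.0596 and 0.0537), COL4A1 and COL6A1 in MAGI2-CKO (0.0611 and 0.0572) and COL27A1 in RHBDD2-CKO (0.0557). The numbers of collagen genes against Non-target ranged from 12 to 19 for RHBDD2-CKO, 7 to 11 for MLPH-CKO, 10 to 17 for MAGI2-CKO and 8 to 13 for C9orf89-CKO. With only the 6 libraries of a contrast, the number fell from 11 to 6 between MAGI2-CKO and C9orf89-CKO, from 7 to 4 between MLPH-CKO and C9orf89-CKO and from 7 to 4 between MLPH-CKO and MAGI2-CKO. With a mean of at least 1 FPKM it was 4 between MLPH-CKO and C9orf89-CKO, where fewer genes were tested. Leaving out 1 library at a time gave 6 to 11 between MAGI2-CKO and C9orf89-CKO, with 6 without the second library of either clone and 7 without the third of MAGI2-CKO. It gave 4 to 8 between MLPH-CKO and C9orf89-CKO, with 4 without the second C9orf89-CKO library. The cause of the other shifts was not tested.

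With the replicate number as a block (replicate block), 17 collagen genes passed against Non-target in RHBDD2-CKO, 11 in MLPH-CKO, 15 in MAGI2-CKO and 13 in C9orf89-CKO, and all 113 changes passed. Of all genes, 43.5%, 38.9%, 44.3% and 35.4% passed under the block in this order, beside 34.1%, 30.1%, 36.1% and 26% without it. The genes added were COL6A2 in every clone (adjusted p = 0.00115 in C9orf89-CKO, 0.00116 in MAGI2-CKO, 0.00281 in RHBDD2-CKO and 0.0192 in MLPH-CKO) and COL18A1 in MLPH-CKO and C9orf89-CKO (0.00581 and 0.0110). COL13A1 was added in C9orf89-CKO (0.0174), COL1A1 in RHBDD2-CKO (0.0154) and COL5A1 in MAGI2-CKO (0.0435). Whether the numbers pair the wells is not stated in the labels. Deviations from the group means had a median correlation of 0.0856 over 30 pairs of libraries with the same number, 12 of them above 0.1. The lowest of these correlations was 0.00103. Over 60 pairs with different numbers the median was -0.0887, with 2 of them above 0.1. The numbers of collagen-handling genes against Non-target (22 in C9orf89-CKO, 25 in MLPH-CKO, and 30 in each other clone) stayed within 1.5 times under all 25 alternatives. The 14 genes below 0.1 FPKM in every library had few fragments, at most 17 in a library, for COL6A6. Their levels are therefore known with little precision. They were under the filter by their level, as was COL24A1, with 46 to 94 fragments in a library. Having 1 clone per genotype limits all comparisons.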
